A study of Canis lupus familiaris with 6 samples.

Results

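Actin filaments, the myosin motors that pull on them and the tropomyosins that coat them were followed here through 73 genes of a canine expression array. The genes were chosen by name alone: every probe that is not a control and whose gene symbol is that of an actin, alpha-actinin, actin-related protein, Arp2/3 subunit, myosin heavy or light chain, unconventional myosin, tropomyosin, calponin, transgelin, caldesmon, cofilin, profilin, filamin, vinculin or talin. The choice gave 177 probes (181 spots) of the 43603 probes (43803 spots, 35582 gene names) on the array. Of the 73 genes, 27 had 1 probe and 46 had several, up to 19 for MYH7, the beta myosin heavy chain of heart and slow muscle. Of 39 well-known members, 30 had a probe under their symbol, and others, such as ACTA2, MYH14, MYL9, MYL6, TPM4, CALD1, PFN1 and PFN2, were not analysed here.

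The samples were 3 established canine mammary tumor cell lines: P114 from an anaplastic cancer, CMT-U27 from a simple carcinoma and CMT-U309 from a spindle cell tumor. Each line was grown either alone (monoculture) or with myeloid-derived suppressor cells (MDSCs), immature myeloid cells sorted from blood of healthy dogs by the surface markers Gr1, CD11b and CD33 and kept apart from the tumor cells by a transwell insert. The labels give a co-culture of at least 72 h, while the methods give a shorter time. RNA from both cultures of a line was hybridised together on 2-colour arrays, with co-culture in the red dye (Cy5) on replicate 1 and in the green dye (Cy3) on replicate 2. The 6 arrays therefore hold 6 RNA samples, each measured once per dye, and a line has 1 pair of cultures. Each tumor type is represented by 1 line, so differences between lines cannot be told apart from differences between tumor types, and each line lay on a slide of its own, so slide and line cannot be told apart either.

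In cells, actin monomers assemble into filaments that the Arp2/3 complex branches and that cofilin severs. Alpha-actinins and filamins cross-link filaments, and talins and vinculin tie them to adhesions. Non-muscle myosin heavy chains and their light chains form bipolar filaments that contract actin bundles. Tropomyosins, calponins and transgelin lie along contractile filaments and are abundant in smooth muscle, myofibroblasts and many spindle-shaped cells. Unconventional myosins carry vesicles or tether membranes to actin, several of them at the apical side of epithelial cells.

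Sequences of the probes on which the results turn are given first, 5′ to 3′, with the position that the array files give on the canFam2 dog genome. Actin genes are alike in their coding sequence but not identical. In all, 5 pairs of probes of different member genes aligned without gaps over 30 bases or more with 80% identity or more, and 4 of them were pairs of actin genes. Those 4 pairs shared 83.3% to 89.7% of their aligned bases. Cross-hybridisation between them was not tested, and actin levels are given probe by probe.

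Probes of CFL1, cofilin-1, are shown because they differ in their response to co-culture. Each covers 275 bases of the genome with 60 bases of probe, so each spans a splice junction, the first at chr18:54432833-54433107 and the second at chr18:54432845-54433119, plus strand. Capitals mark the only base at which they differ where they overlap.
CFL1 first probe: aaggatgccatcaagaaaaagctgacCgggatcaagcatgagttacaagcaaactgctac
CFL1 second probe: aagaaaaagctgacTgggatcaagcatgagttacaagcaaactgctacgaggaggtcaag
They share 47 of 48 overlapping bases, with the substitution C27T counted from the 5′ end of the first probe, so they read 1 target and are not independent. Probes of TPM2, beta-tropomyosin, and of TAGLN, transgelin, are shown because these genes were among those that differed most between the lines. The TPM2 probes lie at chr11:55241357-55241416 and chr11:55243726-55243942, and the TAGLN probe lies at chr5:19397199-19397258, all on the minus strand.
TPM2 first probe: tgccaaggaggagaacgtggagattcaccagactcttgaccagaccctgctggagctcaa
TPM2 second probe: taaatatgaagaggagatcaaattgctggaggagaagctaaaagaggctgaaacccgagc
TAGLN: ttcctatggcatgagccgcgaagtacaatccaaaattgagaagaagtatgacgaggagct

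A level is the log2 of the deposited processed signal after each of the 12 channels was scaled to a common median, averaged over both dyes of an RNA sample. Levels of different probes are not comparable, so each probe is compared only with itself across samples. A gene is represented by its brightest probe unless another is named. A probe counts as detected in a channel where the scanner software called it well above background. By this call, 52 of the 73 genes were detected in all 12 channels and 2, MYH2 and MYL10, in none. Among probes, 53.1% of the members against 47.6% of the array were detected in all 12 channels. Striated muscle myosin heavy chains stood apart, with 19 of 33 probes detected in no channel, whereas all probes of tropomyosins, calponins, transgelins and cofilins were detected in all 12. No member was saturated, and precision is set throughout by how few arrays there are.

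Agreement between the arrays of a line was poor for the co-culture ratio. Over all probes, the ratio of co-culture to monoculture on replicate 1 correlated with that on replicate 2 at r = 0.26 in CMT-U27, -0.09 in CMT-U309 and -0.39 in P114. P114 had the lowest r, and results on co-culture are given with and without it. Against replicate 2 of CMT-U27 and CMT-U309, r was 0.47 and 0.51 for P114 replicate 2 and -0.48 and -0.51 for P114 replicate 1. Against replicate 1 of CMT-U27 and CMT-U309, r was 0.09 and -0.21 for P114 replicate 2 and -0.22 and 0.03 for P114 replicate 1. The cell type of the lines was checked with marker lists. All 8 epithelial markers with a probe were higher in CMT-U27 than in either other line, and 9 of 11 mesenchymal or spindle cell markers were lower in CMT-U27 than in P114 and than in CMT-U309. P114, labelled as a cancer, had 5 of the 8 epithelial markers above CMT-U309, but a summed epithelial signal of only 1617 to 2223 in its 4 channels against 108885 to 132620 in CMT-U27.

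Between the lines, 17 of 73 members were lowest in the carcinoma line CMT-U27, against 6.62% of all gene symbols, among them calponins, transgelins, FLNA, MYH9 and TPM2. A gene was called different where the adjusted p of limma over all probes was below 0.05 and the fold above 2. The 2 RNA samples of a line are its monoculture and its co-culture, and they share its arrays. With condition as a covariate, the spread behind these p-values is how far the co-culture change differs between lines. It is not the spread between repeated cultures of a condition, nor that between separate arrays or slides. By this rule, 29 of 73 genes (39.7%) differed between P114 and CMT-U27, against 23.6% of all gene symbols, with 22 higher and 7 lower in P114 (11.6% and 12% of all symbols). Between CMT-U27 and CMT-U309, 31 genes (42.5%) differed, against 28.3%, with 10 higher and 21 lower in CMT-U27 (14.7% and 13.6% of all symbols). P114 and CMT-U309 differed in 14 genes (19.2%), against 14.4%, with 6 higher and 8 lower in P114 (7.57% and 6.83% of all symbols). The median log2 difference of the members was 0.59 in P114 minus CMT-U27 (0.15 over all probes), 0.08 in P114 minus CMT-U309 (0.15) and -0.44 in CMT-U27 minus CMT-U309 (0.04). After normexp background correction, loess and quantile scaling of the average intensity (Aquantile), the genes lower in P114 than in CMT-U27 numbered 2, those between P114 and CMT-U309 numbered 2 higher and 4 lower, and those higher in CMT-U27 than in CMT-U309 numbered 5. The normexp step adds an offset of 50 to each signal, which by construction shrinks log2 differences of dim probes. In all, 41 genes were called in at least 1 of the 3 contrasts, against 38.6% of all symbols, and 32 in none. With both contrasts called, 5 of the 73 genes were highest in CMT-U27 (8.42% of all symbols), 6 highest (4.03%) and 4 lowest (3.35%) in CMT-U309, and 1 highest (2.8%) and none lowest (2.51%) in P114.

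**Figure D1:**
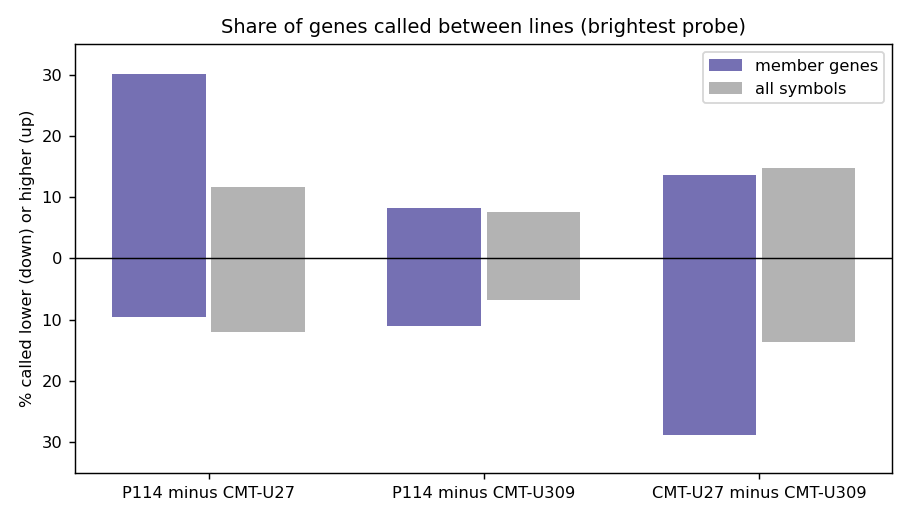
Share of the 73 member genes (purple) and of all gene symbols on the array (grey) that were called higher (upward bars) or lower (downward bars) in the first-named line, in percent, for the 3 contrasts between lines. The members exceeded all symbols most among genes higher in P114 than in CMT-U27 (22 of 73) and among genes lower in CMT-U27 than in CMT-U309 (21 of 73).

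Tropomyosins bind along the groove of the actin filament and control which myosins can reach it. TPM2 had the widest range of all members at their brightest probes. Its levels in monoculture and co-culture were 9.47 and 9.39 in P114, 7.74 and 7.08 in CMT-U27, and 15.89 and 15.72 in CMT-U309. The 2 samples of CMT-U309 lay far above the 4 others, and those of CMT-U27 lay below those of P114. TPM2 was 337-fold higher in CMT-U309 than in CMT-U27 (log2 difference CMT-U27 minus CMT-U309 of -8.40, SE 0.16, adjusted p = 4.65e-10) and 83.1-fold higher than in P114 (adjusted p = 5.34e-09). It was also 4.05-fold higher in P114 than in CMT-U27 (adjusted p = 5.92e-06). The second TPM2 probe gave the same order, with a 421-fold difference between CMT-U309 and CMT-U27. TPM1, alpha-tropomyosin, was 3.14-fold higher in P114 than in CMT-U309 by its brightest probe (levels 14.28 and 14.26 in P114, 13.39 and 13.67 in CMT-U27, and 12.48 and 12.76 in CMT-U309; adjusted p = 1.79e-05). Its other probe gave another order, with levels of 11.23 and 11.32 in P114, 12.44 and 12.42 in CMT-U27, and 11.61 and 11.85 in CMT-U309, and was highest in CMT-U27. Since the TPM1 probes disagree, no order of the lines is given for this gene. TPM3, whose levels were 14.62 and 14.49 in P114, 14.26 and 14.07 in CMT-U27, and 14.18 and 14.16 in CMT-U309, was called in no contrast.

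Calponins and transgelins, small proteins that bind actin and are used as markers of smooth muscle and myofibroblasts, were low in CMT-U27. All 6 were lower in CMT-U27 than in CMT-U309 (13.6% of all symbols), and 5 of 6 were higher in P114 than in CMT-U27 (11.6%). TAGLN reached levels of 10.00 and 9.96 in P114, 7.83 and 8.27 in CMT-U27, and 12.93 and 13.58 in CMT-U309, without overlap between the lines. It was 37.0-fold higher in CMT-U309 than in CMT-U27 (log2 difference CMT-U27 minus CMT-U309 of -5.21, SE 0.17, adjusted p = 9.08e-09) and 9.70-fold higher than in P114 (adjusted p = 5.60e-07). The other TAGLN probe, printed above, gave 48.9-fold and 19.2-fold. CNN2, the calponin found outside muscle, had levels of 11.54 and 11.76 in P114, 7.55 and 7.12 in CMT-U27, and 11.93 and 12.10 in CMT-U309. P114 and CMT-U309 were not called different (log2 difference P114 minus CMT-U309 -0.36, SE 0.18), and both exceeded CMT-U27, by 19.9-fold (adjusted p = 4.09e-08) and 25.6-fold (adjusted p = 2.07e-08). CNN1, basic calponin of smooth muscle, measured 10.08 and 8.61 in P114, 5.80 and 6.97 in CMT-U27, and 8.87 and 10.00 in CMT-U309, and was 8.27-fold lower in CMT-U27 than in CMT-U309 (adjusted p = 7.18e-04). TAGLN2 measured 10.97 and 9.21 in P114, 7.21 and 8.50 in CMT-U27, and 9.03 and 10.29 in CMT-U309 and TAGLN3 measured 9.64 and 8.22 in P114, 6.23 and 7.31 in CMT-U27, and 8.85 and 9.89 in CMT-U309. In these 3 genes the cultures of each line differed by more than 1 log2 unit, and TAGLN2 lost its call in CMT-U27 against CMT-U309 without P114 replicate 2 or CMT-U27 replicate 1. CNN3 differed least and lay just past the fold threshold in CMT-U27 against CMT-U309, a call lost without CMT-U27 replicate 1 or CMT-U309 replicate 2 (adjusted p = 2.15e-04), with levels of 11.50 and 11.46 in P114, 10.74 and 10.99 in CMT-U27, and 11.75 and 11.99 in CMT-U309.

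**Figure D2:**
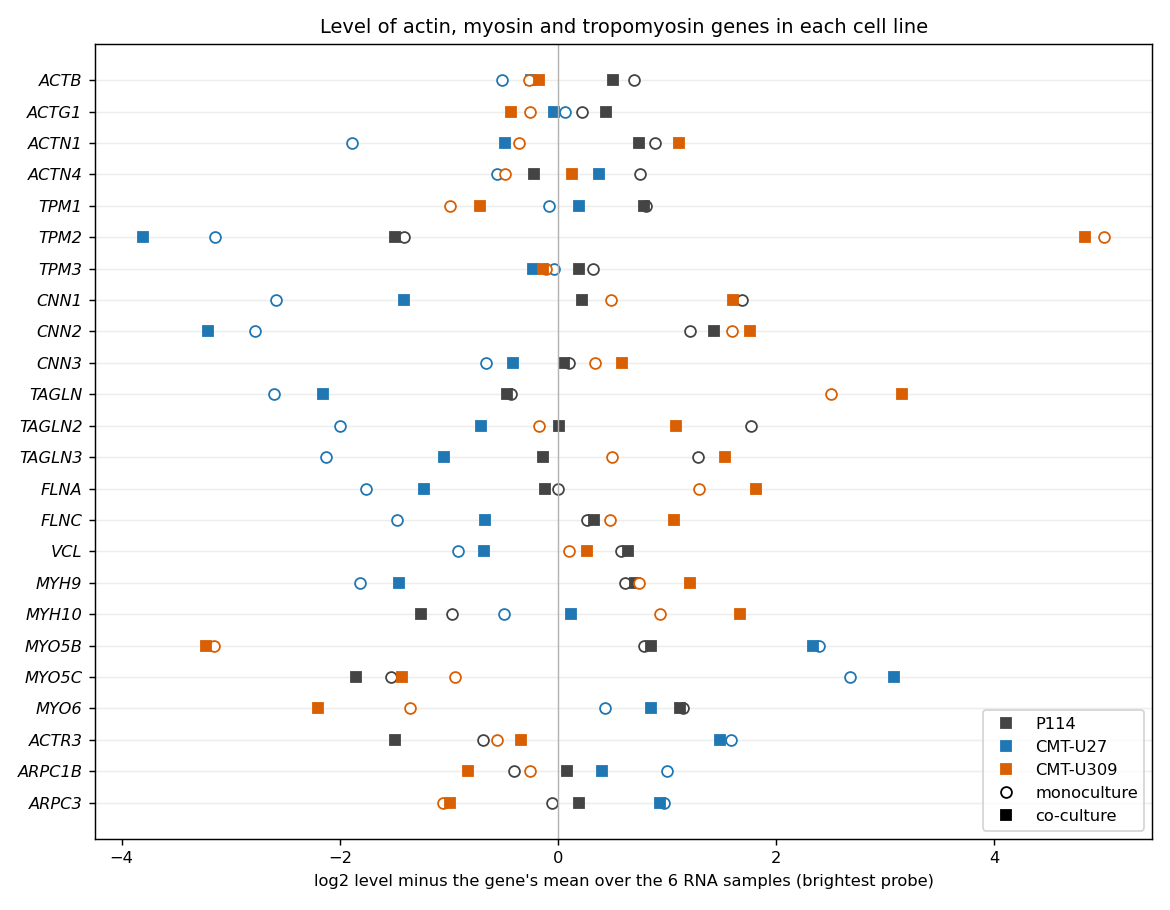
Levels of 24 member genes in the 6 RNA samples, as the log2 level of the brightest probe minus the mean over the samples (x axis); colour gives the line, open circles monoculture and filled squares co-culture. TPM2 and TAGLN were highest in CMT-U309, calponins, transgelins and MYH9 were lowest in CMT-U27, and MYO5B and MYO5C were highest in CMT-U27.

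Of the 5 filamins, vinculin and talins tested, 3 were higher in P114 than in CMT-U27 (11.6% of all symbols). In CMT-U27, 2 were lower than in CMT-U309 (13.6% of all symbols). FLNA, filamin A, had levels of 12.95 and 12.84 in P114, 11.19 and 11.72 in CMT-U27, and 14.25 and 14.76 in CMT-U309, and the 3 lines did not overlap. It was 8.28-fold higher in CMT-U309 than in CMT-U27 (adjusted p = 4.19e-07), 3.06-fold higher than in P114 (adjusted p = 8.99e-05) and 2.71-fold higher in P114 than in CMT-U27 (adjusted p = 1.02e-04). FLNC, the muscle filamin, was lowest in CMT-U27 as well, with levels of 10.88 and 10.95 in P114, 9.14 and 9.95 in CMT-U27, and 11.09 and 11.68 in CMT-U309. ACTN1, non-muscle alpha-actinin, was 4.01-fold higher in P114 than in CMT-U27 (adjusted p = 6.58e-04), with levels of 11.80 and 11.65 in P114, 9.02 and 10.42 in CMT-U27, and 10.55 and 12.02 in CMT-U309. ACTN4, the other non-muscle alpha-actinin, with levels of 8.46 and 7.48 in P114, 7.14 and 8.07 in CMT-U27, and 7.22 and 7.83 in CMT-U309, was not called. VCL, vinculin, was 2.65-fold higher in P114 than in CMT-U27 (adjusted p = 0.00245), but it was detected in only 7 of 12 channels, and after normexp, loess and Aquantile the log2 difference was 0.17 and not called. Of the talins, which link integrins to actin, TLN1 was called in no contrast and TLN2 was lower in P114 than in CMT-U309, just past the fold threshold (adjusted p = 0.00342), a call lost without P114 replicate 1 or CMT-U309 replicate 2.

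Of the non-muscle heavy chains, MYH9 was lowest in CMT-U27 and MYH10 highest in CMT-U309. MYH9, the heavy chain of non-muscle myosin IIA, had levels of 14.24 and 14.34 in P114, 11.81 and 12.18 in CMT-U27, and 14.37 and 14.85 in CMT-U309. It was 4.91-fold higher in P114 and 6.12-fold higher in CMT-U309 than in CMT-U27 (adjusted p = 9.53e-07 and 3.35e-07), and its 3 probes gave the same order. MYH10, the heavy chain of non-muscle myosin IIB, was highest in CMT-U309, with levels of 4.03 and 3.75 in P114, 4.51 and 5.13 in CMT-U27, and 5.94 and 6.67 in CMT-U309. Because MYH10 was detected in no channel of P114, the difference from P114 is a bound: it was at least 1.59-fold higher in CMT-U309 (adjusted p = 3.08e-04). For such bounds, the level is taken after normexp background correction and loess, and the dim line is set to the lowest signal called well above background or its own signal where that is higher. The normexp offset of 50 also makes these bounds smaller. After normexp, loess and Aquantile MYH10 was called in no contrast. MYH11, the smooth muscle heavy chain and a myoepithelial marker, was detected in 3 of 12 channels and was called in no contrast. Among light chains, MYL2, the regulatory chain of heart and slow muscle, was 14.5-fold higher in CMT-U309 than in CMT-U27 (adjusted p = 5.48e-07) by its brightest probe, with levels of 5.16 and 5.66 in P114, 4.24 and 4.43 in CMT-U27, and 7.87 and 8.51 in CMT-U309. The other 4 MYL2 probes showed no such level in CMT-U309, with 3 of them detected in no channel and 1 reaching means of 3.27 to 3.96. MYL12A, a regulatory light chain of non-muscle myosin, was called in no contrast (levels 14.30 and 14.33 in P114, 13.97 and 13.77 in CMT-U27, and 14.15 and 14.02 in CMT-U309).

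Probes of the muscle actins disagreed with each other, as the plot of actin probes by position shows. The brightest probe of ACTA1, skeletal muscle actin, was lowest in CMT-U27, with levels of 14.23 and 13.88 in P114, 12.40 and 12.83 in CMT-U27, and 13.25 and 13.67 in CMT-U309. Another ACTA1 probe, at chr4:12813152-12813211, plus strand, differed, with levels of 6.53 and 6.30 in P114, 5.89 and 6.34 in CMT-U27, and 12.64 and 13.24 in CMT-U309.
ACTA1: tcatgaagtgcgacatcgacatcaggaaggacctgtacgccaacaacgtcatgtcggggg
It was 113-fold higher in CMT-U309 than in CMT-U27 (adjusted p = 4.88e-09) and 91.9-fold higher than in P114 (adjusted p = 1.70e-08), and it was detected in all 12 channels. The 6 ACTA1 probes at the 3′ end were highest in CMT-U27: their means were 6.22 to 8.12 in CMT-U27, 4.93 to 6.63 in CMT-U309 and 2.78 to 4.59 in P114. Of these, 5 overlap each other and are not independent.

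For ACTG2, the gamma-actin of smooth muscle, the probes disagreed as well. The brighter one lies at chr17:52218407-52218466, minus strand.
ACTG2: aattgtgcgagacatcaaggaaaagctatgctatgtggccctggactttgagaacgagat
Its levels were 12.93 and 12.66 in P114, 10.75 and 11.24 in CMT-U27, and 12.43 and 12.88 in CMT-U309. The dimmer probe, which lies further 3′, gave 3.93 and 3.23 in P114, 3.39 and 2.35 in CMT-U27, and 11.61 and 11.49 in CMT-U309. It was detected in all 4 channels of CMT-U309, in 1 of CMT-U27 and in none of P114. CMT-U309 was therefore at least 23.1-fold higher than P114 at this probe (adjusted p = 2.28e-08). The array files describe both ACTG2 probes as a cardiac actin fragment, and which actin RNA each reports was not tested. ACTB and ACTG1, the actins of all cells, were called in no contrast at their brightest probes, with levels of 17.72 and 17.53 in P114, 16.52 and 16.78 in CMT-U27, and 16.76 and 16.85 in CMT-U309 for ACTB and 17.59 and 17.81 in P114, 17.43 and 17.34 in CMT-U27, and 17.11 and 16.94 in CMT-U309 for ACTG1. The log2 difference of ACTB in P114 minus CMT-U27 was 0.98 (SE 0.17, adjusted p = 0.00112), just below the fold of 2.

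**Figure D3:**
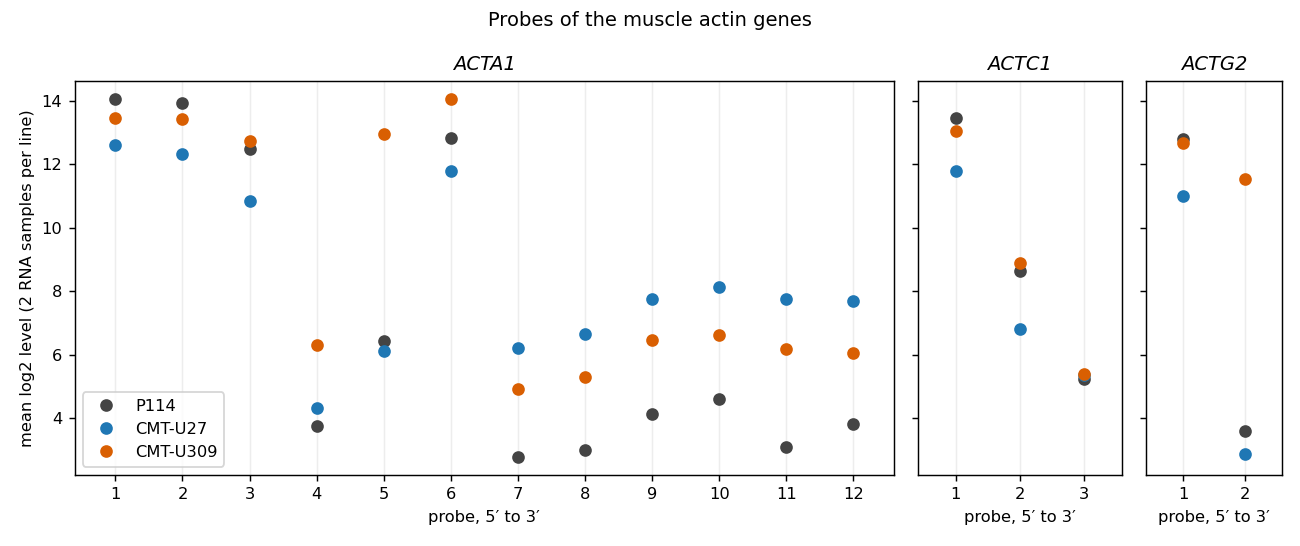
Mean log2 level of each probe of the muscle actin genes ACTA1 (12 probes), ACTC1 (3) and ACTG2 (2) in the 3 lines, ordered from 5′ to 3′ along the gene. Levels can be compared between lines at a probe and not between probes; ACTA1 probe 5 and ACTG2 probe 2 were high in CMT-U309 alone, and ACTA1 probes 7 to 12 were highest in CMT-U27.

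Of the unconventional myosins, MYO5B, MYO5C and MYO1D were highest in CMT-U27. MYO5B, a vesicle motor of the apical recycling pathway of epithelia, had levels of 11.32 and 11.39 in P114, 12.92 and 12.87 in CMT-U27, and 7.38 and 7.31 in CMT-U309, without overlap. It was 46.9-fold higher in CMT-U27 than in CMT-U309 (log2 difference CMT-U27 minus CMT-U309 of 5.55, SE 0.13, adjusted p = 1.36e-09), 16.1-fold higher in P114 than in CMT-U309 (adjusted p = 2.44e-08) and 2.92-fold lower in P114 than in CMT-U27 (adjusted p = 9.72e-06). MYO5C, a related motor of secretory epithelia, was seen mainly in CMT-U27, with levels of 3.13 and 2.81 in P114, 7.34 and 7.75 in CMT-U27, and 3.72 and 3.24 in CMT-U309. As no channel of P114 detected MYO5C, CMT-U27 was at least 2.39-fold higher (adjusted p = 1.87e-06). Against CMT-U309, where 3 of 4 channels detected it, MYO5C was higher in CMT-U27 (adjusted p = 3.74e-06), with a log2 difference of 4.06 that shrank to 1.23 after normexp, loess and Aquantile. MYO6, the motor that moves towards the minus end of actin, was lowest in CMT-U309, with levels of 7.19 and 7.16 in P114, 6.47 and 6.89 in CMT-U27, and 4.68 and 3.84 in CMT-U309, and was 7.55-fold higher in P114 (adjusted p = 6.00e-05) and 5.36-fold higher in CMT-U27 (adjusted p = 8.85e-05). After normexp, loess and Aquantile the MYO6 differences were 0.91 and 0.58 on the log2 scale, and neither was called. MYO1D, a membrane-tethering myosin, was 2.91-fold lower in P114 than in CMT-U27 (adjusted p = 1.05e-04). That call was lost under the same processing (log2 -0.73) and with the median over the MYO1D probes. MYO1D was 2.19-fold higher in CMT-U27 than in CMT-U309 (adjusted p = 7.04e-04). That call was kept in 12 of 16 other settings. It was lost after normexp, loess and Aquantile, quantile normalization of channels, 75th percentile scaling and with the probe median. Of all 17 unconventional myosins, 6 were called between P114 and CMT-U27 (2 higher, 4 lower in P114), 3 between P114 and CMT-U309 and 7 between CMT-U27 and CMT-U309 (4 higher, 3 lower in CMT-U27). Among all symbols, 23.6%, 14.4% and 28.3% were called in these contrasts.

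The Arp2/3 complex, which nucleates branched actin at the cell edge, was in part higher in CMT-U27. Of its 10 genes, 5 were higher and none lower in CMT-U27 than in CMT-U309, against 14.7% and 13.6% of all symbols. The 5 were ACTR3, ARPC1A, ARPC1B, ARPC3 and ARPC5L. ARPC3 had levels of 13.83 and 14.08 in P114, 14.86 and 14.82 in CMT-U27, and 12.84 and 12.89 in CMT-U309 and was 3.94-fold higher in CMT-U27 than in CMT-U309 (adjusted p = 1.90e-06). ARPC1B was 2.36-fold higher (adjusted p = 0.00184), a call lost under quantile normalization of channels (log2 0.95). ARPC1A was 2.01-fold higher (adjusted p = 1.31e-04), at the threshold, and its call was kept in 10 of 16 other settings. The ARPC1A call was lost without CMT-U27 replicate 2 or CMT-U309 replicate 2 and with the median over its probes. It was also lost after normexp, loess and Aquantile, quantile normalization of channels and 75th percentile scaling. The array files describe the probe under the symbol ACTR3 as ARP3 homolog B and those under ACTR3B as actin-related protein 3, so which of these genes each probe reads is uncertain. The probe under ACTR3 was detected in 6 of 12 channels, and its calls were lost after normexp, loess and Aquantile. The brightest probe under ACTR3B was 2.86-fold higher in P114 than in CMT-U27 (adjusted p = 1.60e-05). None of the 5 other actin-related proteins, which serve dynactin and chromatin complexes, was called in any contrast.

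Genes of the wider actin pathway were read from lists of known members. Of 24 other actin-binding and adhesion genes with a probe, 8 were higher and 4 lower in P114 than in CMT-U27 (11.6% and 12% of all symbols). Between CMT-U27 and CMT-U309, 7 were higher and 5 lower in CMT-U27 (14.7% and 13.6% of all symbols). MSN, moesin, was among those lowest in CMT-U27 (levels 7.97 and 8.46 in P114, 4.92 and 4.82 in CMT-U27, and 7.86 and 8.39 in CMT-U309), and EZR, its epithelial relative ezrin, was higher in CMT-U27 than in CMT-U309 (levels 10.04 and 10.33 in P114, 11.14 and 11.07 in CMT-U27, and 9.68 and 10.08 in CMT-U309). CAP2, a cyclase-associated protein that recycles actin monomers, was highest in CMT-U309 (levels 2.77 and 2.31 in P114, 5.18 and 5.81 in CMT-U27, and 9.03 and 9.53 in CMT-U309). Of 19 tested sarcomere genes other than myosin and actin, 6, 6 and 8 were called in the 3 contrasts, against 23.6%, 14.4% and 28.3% of all symbols.

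Under co-culture with MDSCs, 1 member passed the thresholds of the methods and none passed after adjustment. These thresholds, an unadjusted p below 0.05 and a fold above 2, were applied here to limma's test of the mean of 3 lines, and 1 of 73 genes passed, higher in co-culture, against 1.13% of all gene symbols higher, 0.223% lower and 1.35% in either direction. No member, and 0% of the probes of the array, had an adjusted p below 0.05 by limma, the smallest over all probes being 0.229. With the unadjusted p alone, 11 genes were higher and 1 lower, against 5.64% and 4.48% of all symbols. The median log2 ratio of the 73 genes was 0.11, against 0.01 over all probes, and the members ranged from -0.62 to 1.08. On the single arrays, between 46.6% and 76.7% of the members were higher in co-culture, against 49.3% to 55.5% of all probes.

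The gene that passed was MYH2, the heavy chain of fast skeletal muscle myosin, which the study also lists. None of the 12 channels had MYH2 well above background, so it has no fold (unadjusted p = 0.0165, adjusted p = 0.498). Its log2 ratios were -1.11 and 2.62 in P114, 1.61 and 0.75 in CMT-U27, and -0.62 and 3.21 in CMT-U309 on replicates 1 and 2, which ran against each other in P114 and in CMT-U309. Another of its 5 probes passed as well, equally undetected. MYH1, MYH2, ACTN2 and CFL1 stand in the study's list of regulated genes, which was drawn from these arrays and is no independent evidence. MYH1, a second fast muscle heavy chain on that list, had ratios of -0.48 and -0.96 in P114, -0.13 and -2.66 in CMT-U27, and 0.25 and 0.25 in CMT-U309 at its brightest probe (mean of the 3 lines -0.62, SE 0.28, unadjusted p = 0.0509, adjusted p = 0.498), and its other 3 probes were detected in no channel. ACTN2, sarcomeric alpha-actinin, gave 0.94 and -0.55 in P114, -0.56 and 0.72 in CMT-U27, and -0.61 and 1.13 in CMT-U309 (mean of the 3 lines 0.18, SE 0.22, unadjusted p = 0.438, adjusted p = 0.761), with a change of sign within each line.

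CFL1, the fourth, depended on the probe. At the first printed probe its log2 ratios were -1.11 and 0.76 in P114, 2.03 and 2.04 in CMT-U27, and 1.68 and 1.86 in CMT-U309 (mean of the 3 lines 1.21, SE 0.33, unadjusted p = 0.00481, adjusted p = 0.498). All arrays of CMT-U27 and CMT-U309 were high and closely grouped, and those of P114 were split. At the second probe the ratios were -1.14 and 0.55 in P114, 1.97 and 1.91 in CMT-U27, and 1.71 and 1.86 in CMT-U309 (1.14, SE 0.34, unadjusted p = 0.00782). Both met these thresholds and were detected in all 12 channels. The brightest CFL1 probe, further 3′, gave -0.24 and -0.02 in P114, 0.09 and 0.12 in CMT-U27, and 0.19 and 0.15 in CMT-U309 (0.05, SE 0.13, unadjusted p = 0.711), and did not pass. The upstream probes and the 3′ probe thus disagree by more than 1 log2 unit in CMT-U27 and CMT-U309. Of the 177 probes, 4 passed in all, 2 of CFL1 and 2 of MYH2, of 167 tested, all higher, against 1.03% of all probes higher and 0.191% lower.

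**Figure D4:**
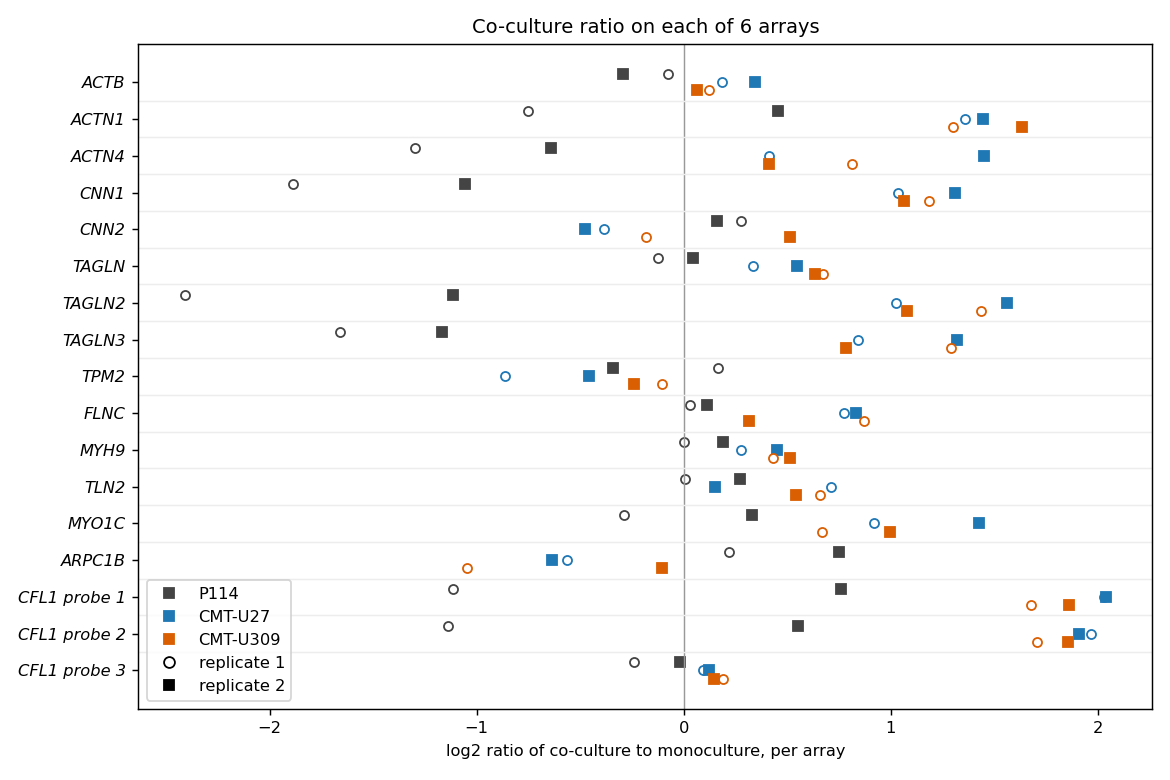
Log2 ratio of co-culture to monoculture on each of the 6 arrays for 14 member genes at their brightest probe and for the 3 CFL1 probes from 5′ to 3′; colour gives the line, open circles replicate 1 and filled squares replicate 2. CFL1 probes 1 and 2 lay between 1.68 and 2.04 in CMT-U27 and CMT-U309 and probe 3 near 0, and CNN1, TAGLN2 and TAGLN3 lay below 0 in P114 and above 0 in the other lines.

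Below a fold of 2, few members kept 1 direction. At their brightest probes, FLNC, MYH9 and TLN2 were the only genes higher on 6 of 6 arrays, and none was lower on all. FLNC had ratios of 0.03 and 0.11 in P114, 0.77 and 0.83 in CMT-U27, and 0.87 and 0.31 in CMT-U309 (mean of the 3 lines 0.49, SE 0.15, unadjusted p = 0.00768, adjusted p = 0.498). MYH9 had ratios of 0.00 and 0.19 in P114, 0.27 and 0.45 in CMT-U27, and 0.43 and 0.51 in CMT-U309 (0.31, SE 0.12, unadjusted p = 0.0261), and TLN2 of 0.01 and 0.27 in P114, 0.71 and 0.15 in CMT-U27, and 0.66 and 0.54 in CMT-U309 (0.39, SE 0.16, unadjusted p = 0.0341). All 3 were small in P114 at these probes. Another MYH9 probe read lower: its mean ratio minus that of the brightest was -0.34 for P114, -0.58 for CMT-U27 and -0.34 for CMT-U309. For another FLNC probe that difference was 0.09, -0.58 and 0.23 in the same order. At its brightest probe, ACTN1 lay above 1 on every array of CMT-U27 and CMT-U309 and was split in P114. Its ratios there were -0.75 and 0.46 in P114, 1.36 and 1.45 in CMT-U27, and 1.30 and 1.63 in CMT-U309 (0.91, SE 0.26, unadjusted p = 0.00634). The other ACTN1 probe read lower: its mean ratio minus that of the brightest was -1.09 for P114, -0.70 for CMT-U27 and -0.75 for CMT-U309. MYO1C, a myosin of the cell membrane, was above 0 at its brightest probe on every array of CMT-U27 and CMT-U309 and also split in P114. Its ratios there were -0.29 and 0.33 in P114, 0.92 and 1.43 in CMT-U27, and 0.67 and 1.00 in CMT-U309 (0.67, SE 0.19, unadjusted p = 0.00611). The mean ratio of this probe minus that of the other MYO1C probe was -0.04 for P114, 0.91 for CMT-U27 and 0.49 for CMT-U309. TPM2 was the only member lower at an unadjusted p below 0.05, with 0.17 and -0.34 in P114, -0.87 and -0.46 in CMT-U27, and -0.11 and -0.24 in CMT-U309 (-0.31, SE 0.13, unadjusted p = 0.0446), but its second probe had a mean of -0.04 (unadjusted p = 0.769). ACTB stayed near 0, with -0.08 and -0.30 in P114, 0.19 and 0.34 in CMT-U27, and 0.12 and 0.07 in CMT-U309.

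CNN1, TAGLN2 and TAGLN3 had ratios of opposite sign in different lines. CNN1 had log2 ratios of -1.89 and -1.05 in P114, 1.04 and 1.31 in CMT-U27, and 1.19 and 1.07 in CMT-U309. TAGLN2 had -2.41 and -1.11 in P114, 1.02 and 1.56 in CMT-U27, and 1.44 and 1.08 in CMT-U309, and TAGLN3 had -1.66 and -1.17 in P114, 0.84 and 1.32 in CMT-U27, and 1.29 and 0.79 in CMT-U309. In each, both arrays of P114 were below 0 and all 4 arrays of the other lines above 0, so their means over 3 lines were near 0 and none was called. No test is possible within a line, which has 1 pair of cultures. Of 52 genes detected in all 12 channels, 12 (23.1%) had both arrays of P114 opposite to all 4 arrays of the other lines, against 10.2% of all such symbols.

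In the fit of CMT-U27 and CMT-U309 alone, 8 of 73 genes passed the thresholds of the methods, all higher, against 5.47% of all symbols higher and 1.58% lower. They were ACTN1, MYO3A, TAGLN2, MYH2, CNN1, TAGLN3, MYL10 and MYO1C, of which MYH2 and MYL10 were detected in no channel and MYO3A in 2 of 12. For ACTN1 and MYO1C, the other probe gave a lower mean ratio in each of these lines, as given above. With an adjusted p below 0.05, 20 members were higher and 3 lower, against 15.7% of all symbols in either direction and 8.59% higher. At its brightest probe, ACTN1 had a mean log2 ratio of 1.43 in these lines (adjusted p = 8.74e-06), against -0.15 in P114. TAGLN2 had 1.28 (adjusted p = 5.73e-05), against -1.76 in P114. ARPC1B, of the Arp2/3 complex, fell by 0.59 (adjusted p = 0.00213), while it was 0.48 in P114. This fit rests on 2 lines, and the arrays of CMT-U309, which were kept, correlated at only r = -0.09. P114 was set apart by the same ratios that the fit tests. Its counts and p-values are therefore a description and no independent evidence of a co-culture effect.

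Base composition of the probes moved with these ratios. Over the 94 member probes detected in all 12 channels, the GC content of the probe correlated with the log2 ratio at r = -0.33 in P114 but at 0.36 in both CMT-U27 and CMT-U309. Over 20741 such probes of the array, r was -0.13, 0.34 and 0.27 in the same order. Probes share arrays and genes, so these values are a description. In the 28 member genes with probes more than 100 bases apart, the first probe had the higher ratio in 11 genes for P114, 16 for CMT-U27 and 18 for CMT-U309. The part of base composition and of probe position in the results was not tested.

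Markers of the MDSCs were checked in the same RNA. None of 12 myeloid markers was called in co-culture, and PTPRC and ITGAM, which mark leukocytes and myeloid cells, were detected in no channel of P114 or CMT-U27, although PTPRC was detected in 3 of 4 channels of CMT-U309. The summed myeloid signal was 7851 to 8159 in monoculture and 13625 to 13861 in co-culture of CMT-U27, where S100A8 and S100A9, calcium-binding proteins also made by epithelia, carried it, and it overlapped between conditions in P114 (1533 to 1695 and 1476 to 1777) and in CMT-U309 (1508 to 1688 and 1520 to 1589). In bulk RNA, fewer cells of a type and less RNA per cell cannot be told apart. Among the pathway lists, none of 19 sarcomere genes was called in co-culture. Of 24 other actin-binding genes, 1 was called, against 1.35% of all symbols in either direction. It was ZYX, zyxin of focal adhesions, with log2 ratios of -1.22 and 1.59 in P114, 1.67 and 2.20 in CMT-U27, and 1.38 and 1.99 in CMT-U309 (mean of the 3 lines 1.27, SE 0.28, unadjusted p = 0.00117, adjusted p = 0.498).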

How the data were processed

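The members and the gene lists were chosen with earlier results of these data known. Per the file headers, the deposited intensities were made by Agilent Feature Extraction 10.10.1.1, which subtracts background and normalizes the dyes within an array; the submitters' processing notes give version 10.7.3.1. The deposited value table holds log10 ratios of co-culture over monoculture on every array, within 4.997e-06 of the scanner values, with a median of 0 per column. Probe positions are those of the array files on canFam2.

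From the processed intensities, channel medians were set equal, control and outlier spots were dropped, probes never above a scaled intensity of 10 were dropped too, replicate spots were averaged, and log2 was taken. Both arrays of a dye swap hold 1 pair of RNA samples and count as 1 replicate. The co-culture ratio is the mean of the 3 lines against 0, and levels are compared over 6 RNA samples with condition as a covariate, both with limma 3.58.1 in R 4.3.3 (lmFit, eBayes with a trend) and Benjamini-Hochberg adjustment over 40883 probes. The labels do not say that cultures were separate, so p-values measure the spread between these samples. Replicate numbers mark the dye orientation: deviations of same-numbered arrays of different lines correlated at 0.36, 0.58 and 0.48. The scripts were tested on simulated data.

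Named were genes listed by the study, those past the co-culture thresholds, up to 5 each way per contrast that were called and well above background in the higher line, and well-known members. ACTA1, ACTC1, TAGLN3, MYO1C, MYO3A, MYL10, ARPC5L, the second probes and all pathway genes were named after their values were seen. Of the 73 symbols, 72 are in the RefSeq dog gene table. Some items are not reported here.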

Additional observations from a re-analysis of the deposited data

Results flagged for a closer look

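In 10 of the 32 named genes looked at, both arrays of one line moved opposite to both arrays of another under co-culture, in 18 pairs of lines. The difference between lines was not tested, since a line has 1 pair of cultures. Each value below is the mean log2 ratio of the first line minus that of the second, at the brightest probe of the gene.

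The calponins and transgelins gave the widest differences. TAGLN2 differed by -3.06 between P114 and CMT-U27 and by -3.02 between P114 and CMT-U309. CNN1 differed by -2.64 and -2.60 in the same pairs. CNN2 went the other way at its brightest probe, by 0.65 between P114 and CMT-U27. The ratio at its other probe differed from that at the brightest by -1.12 in P114 and 0.79 in CMT-U27. The CNN2 probes thus disagree on this direction. ACTN4 differed by -1.90 and -1.58 between P114 and CMT-U27 and between P114 and CMT-U309. The ratio at its other probe minus that at the brightest was 0.67 for P114. The same subtraction gave -0.95 for CMT-U27 and -0.43 for CMT-U309. The ACTN4 differences in both pairs of lines were thus smaller in size at the other probe. Among actins, ACTG2 differed by -0.76 and -0.72 and ACTB by -0.45 and -0.28 in these pairs. CFL1 at its brightest probe differed by -0.24 and -0.30. Of the Arp2/3 genes, ARPC1B was higher in P114 by 1.08 against CMT-U27 and by 1.06 against CMT-U309, and ARPC2 by 0.35 against CMT-U309. ARPC3 differed by 0.29 between P114 and CMT-U27 and by -0.10 between CMT-U27 and CMT-U309.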

How the results depend on the processing

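The 1 gene called higher in co-culture was lost (0 genes) after normexp and loess, with the deposited log10 ratios, with only probes well above background and over 6 arrays with no replicate block, and was 1 with the replicate block. Leaving out a line or an array gave 0 to 8 genes higher, 0 to 1 lower and 0 to 23 with an adjusted p below 0.05, the 8 and the 23 without P114. After normexp, loess and Aquantile, genes lower in P114 than in CMT-U27 went from 7 to 2, those higher in P114 than in CMT-U309 from 6 to 2, those lower from 8 to 4, and those higher in CMT-U27 than in CMT-U309 from 10 to 5. With only probes well above background, those lower in P114 than in CMT-U309 were 5. Taking the median over a gene's probes reversed P114 minus CMT-U309 for MYL2, to 0.39, and for ACTG2, to -3.92, as their probes disagree. For the other changes the cause was not tested. Dim signal over background limits the striated myosins.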
